A study of Mus musculus with 6 samples.

Results

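The 10 genes described here hold cells back from division or belong to the p53 pathway. They are Cdkn1a, Cdkn1b, Cdkn1c, Cdkn2a, Cdkn2b, Cdkn2c and Cdkn2d, which encode inhibitors of cyclin-dependent kinases (CDKs), and Trp53, Mdm2 and Ccng1. They were chosen by name, as 10 of the 21951 protein-coding genes of the mouse annotation, and every H3K27ac peak over each gene and the 20 kb on each side was taken. The peaks of all libraries formed 182956 merged regions, of which 89 lay in these windows. No region was shared by different windows.

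H3K27ac, acetylation of lysine 27 of histone H3, marks active promoters and enhancers. Chromatin carrying it was immunoprecipitated and sequenced (ChIP-seq) from B16 F10 cells, a mouse melanoma line, for which the labels give no treatment and which had been seeded at 100 cells per cm2. On day 5 the low pigment (LP) and high pigment (HP) cells were separated by their side scatter in a flow cytometer, with 2 replicates of each population. The populations are fractions of a cancer cell line at 1 time point, and the labels do not say whether the replicates were separate cultures, so the p-values measure only the spread between these libraries, which may be technical.

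The division cycle is driven by CDKs bound to cyclins. The Cip/Kip inhibitors p21, p27 and p57, encoded by Cdkn1a, Cdkn1b and Cdkn1c, bind several cyclin-CDK pairs, and the INK4 inhibitors p16, p15, p18 and p19, encoded by Cdkn2a, Cdkn2b, Cdkn2c and Cdkn2d, bind CDK4 and CDK6. Cdkn2a also encodes p19Arf from a separate first exon, and p19Arf keeps MDM2, the ubiquitin ligase that removes p53, from doing so. The transcription factor p53 induces Cdkn1a, Mdm2 and Ccng1, and loss of the Cdkn2a locus is among the common lesions of melanoma.

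Each peak list gives how many fragments overlie the summit of a peak (pileup). This number was scaled to 1000000 fragments of the library (scaled pileup). The libraries held 11467942 and 15353176 fragments for LP replicates 1 and 2, and 11483830 and 14254904 for HP replicates 1 and 2, the order used for all values. The lists held 57942 and 66580 peaks in LP and 64759 and 71529 in HP. The lowest scaled pileup in a list was 0.351 to 0.436. For the 12084 regions that every library called, log2 scaled pileups of HP were set against those of LP with limma, at a threshold of 0.05 after Benjamini-Hochberg adjustment over all of them. Over these regions log2 ratios of HP to LP had a median of 0.92, so the values of single genes are given with that shift in mind. With 2 libraries against 2, an exact permutation test has a smallest two-sided p of 0.333, and none was made. The start sites of all 7 melanocyte lineage genes examined (Mitf, Tyr, Tyrp1, Dct, Pmel, Mlana and Sox10) held a region in all 4 libraries. Those of the keratinocyte genes Krt5 and Krt14 and the leukocyte genes Ptprc and Cd3e held none in any, and those of Col1a1, Pdgfra and Pecam1 held one in 1 or 2 libraries.

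Of the 10 genes, 7 carried H3K27ac at a transcription start site (TSS) in all 4 libraries, Cdkn1c was marked weakly in 1 library, and Cdkn2a and Cdkn2b lay in a long stretch without a peak in any library. Of protein-coding genes with a CpG-rich promoter, as defined below, 77.1% had a region in all 4 libraries within 1 kb. The share over all protein-coding genes was not computed. Of the 89 regions, 20 (22.5%) were called in all 4 libraries, against 6.6% of all merged regions, and 54 (60.7%) were called in 1 library, against 81.7%. The LP libraries had 41 and 51 peaks in the windows and the HP libraries 57 and 61, so that HP had 1.28 times as many as LP, against 1.09 times over the whole lists. The peaks covered 23.5 and 37.0 kb of the windows in LP and 45.9 and 63.1 kb in HP. Their mean length was 574 and 725 bp in the LP libraries, 804 and 1034 bp in the HP libraries. Neither measure was computed for peaks outside the windows. Whether longer peaks in HP are particular to these genes was therefore not tested. Of the 9 regions called in 3 libraries, each was missing in LP replicate 1, the library missing in 77.5% of all regions of that kind.

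In 16 of the 20 regions called in all 4 libraries both HP values were above both LP values, and in none was it the other way. The groups overlapped at the TSS region of Mdm2, at the starts of Kri1 (LP 2.18 and 1.5, HP 1.83 and 5.19) and Atp1b2 (LP 0.610 and 1.56, HP 1.13 and 1.89), and at the weaker of the regions at the shared start of Hmmr and Nudcd2. Over all 12084 regions the share with HP above LP in this sense was 74.8%. limma called 0 of the 20 at an adjusted p of 0.05, against 4.01% of all regions, 485 higher and none lower in HP. That count over all regions rested on the processing, and was 0 after centring each library on its median or after quantile normalization, 0 when summits were averaged, 9 when fragment length entered the scaling, 88 with the replicate block and 33 of 10926 with peaks of a q-value of at most 0.001. At an unadjusted p of 0.05 it called 6 of the 20, each higher in HP, and 4374 of all 12084. The 20 log2 ratios of HP to LP ran from 0.17 to 1.59 with a median of 1.01, and each was above 0, as were 11961 of the 12084. After each library was centred on its median, 10 of the 20 were above 0, and after quantile normalization 12 were. Without HP replicate 1, when HP replicate 2 stood alone and was taken to vary like the LP libraries, limma called 14 of the 20 and 6930 of the 12084, and without any other library it called 0 of each.

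**Figure D1:**
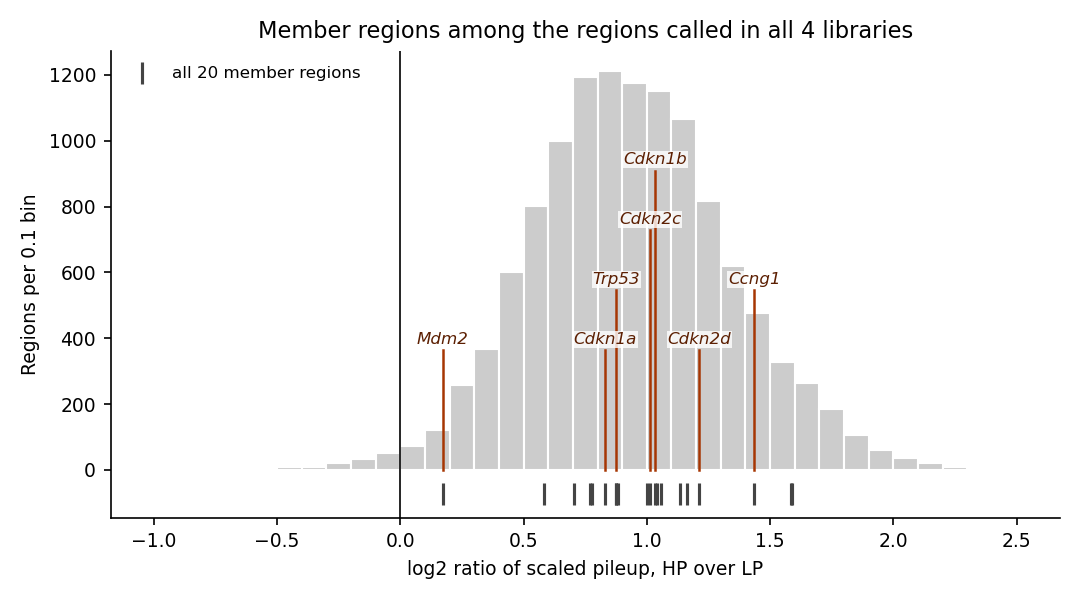
Histogram of the log2 ratio of scaled pileup, HP over LP, for the 12084 regions called in all 4 libraries (bars, regions per 0.1 bin), with the TSS regions of 7 member genes (brown lines) and all 20 member regions (ticks). The 20 ratios run from 0.17 at the Mdm2 start, which lies in the lower tail of the histogram (percentile 2.32 of all regions), to 1.59 in a region upstream of the same gene.

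Regions called in 1 population and not in the other were few. Both HP libraries and neither LP library had a peak in 1 of the 89 regions (1.12%), against 3.94% of all merged regions. It lay at chr6:134942937-134943482 in an intron of Lockd, a non-coding RNA gene downstream of Cdkn1b, with scaled pileups of 0.697 and 1.47. Both LP libraries and neither HP library had a peak in 1 region (1.12%), against 0.249%. It lay at chr17:29120665-29121088 in an exon of Rab44, in the window of Cdkn1a, with scaled pileups of 1.13 and 1.11.

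Among the Cip/Kip genes, Cdkn1a (chr17:29090976-29100727, plus strand, mm10) carried its strongest region at chr17:29092756-29096038, over the downstream start site of the gene. The scaled pileup there reached 4.10 and 3.45 in LP and 5.4 and 8.28 in HP. Both HP values were above both LP values, and the log2 ratio of 0.83 (SE 0.54) had an adjusted p of 0.213 by limma. Relative to the library medians it was -0.18. The region over the upstream start site, chr17:29090625-29092176, was weaker and not called in LP replicate 1, and the other values were 0.977 in LP and 1.74 and 2.88 in HP.

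Further upstream in the same window lay Trp53cor1, which encodes lincRNA-p21, a non-coding RNA induced by p53. Its start region, chr17:29077749-29080515, had scaled pileups of 2.35 and 2.28 in LP and 3.22 and 4.42 in HP, at a log2 ratio of 0.70. The intergenic region next to it, chr17:29080991-29084096, had 2.88 and 1.95 in LP and 3.40 and 7.16 in HP, at a log2 ratio of 1.06. In both, the LP and HP values did not overlap, and neither passed the limma threshold (adjusted p 0.271 and 0.140).

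Cdkn1b (chr6:134920401-134925513, plus strand) had one of the highest marks of the group. Its TSS region, chr6:134919553-134922995, held 4.45 and 6.12 in LP and 6.71 and 17.0 in HP. The groups did not overlap, although HP replicate 1 was close to LP replicate 2. The log2 ratio was 1.03 (SE 0.54, 95% interval -0.03 to 2.10) with an adjusted p of 0.145 by limma. Relative to the library medians it was 0.02. A second broad region of 7844 bp, chr6:134926438-134934281, covered the start of Lockd and was as high, with 6.71 and 6.51 in LP and 7.84 and 16.4 in HP, at a log2 ratio of 0.78.

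Cdkn1c (chr7:143458339-143461050, minus strand), which encodes p57 and is expressed from the maternal allele, had few and low peaks. Its window held 8 regions, each called in 1 library, with scaled pileups of 0.586 to 1.12. LP replicate 1 had no peak in the window, LP replicate 2 had 3, HP replicate 1 had 1 and HP replicate 2 had 4. The start of the neighbouring Slc22a18 had a peak of HP replicate 2 alone (1.12). The single peak at the TSS of Cdkn1c, of LP replicate 2 at chr7:143459801-143460522, had a scaled pileup of 0.782. No region of this window was called in more than 1 library, so none was tested.

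**Figure D2:**
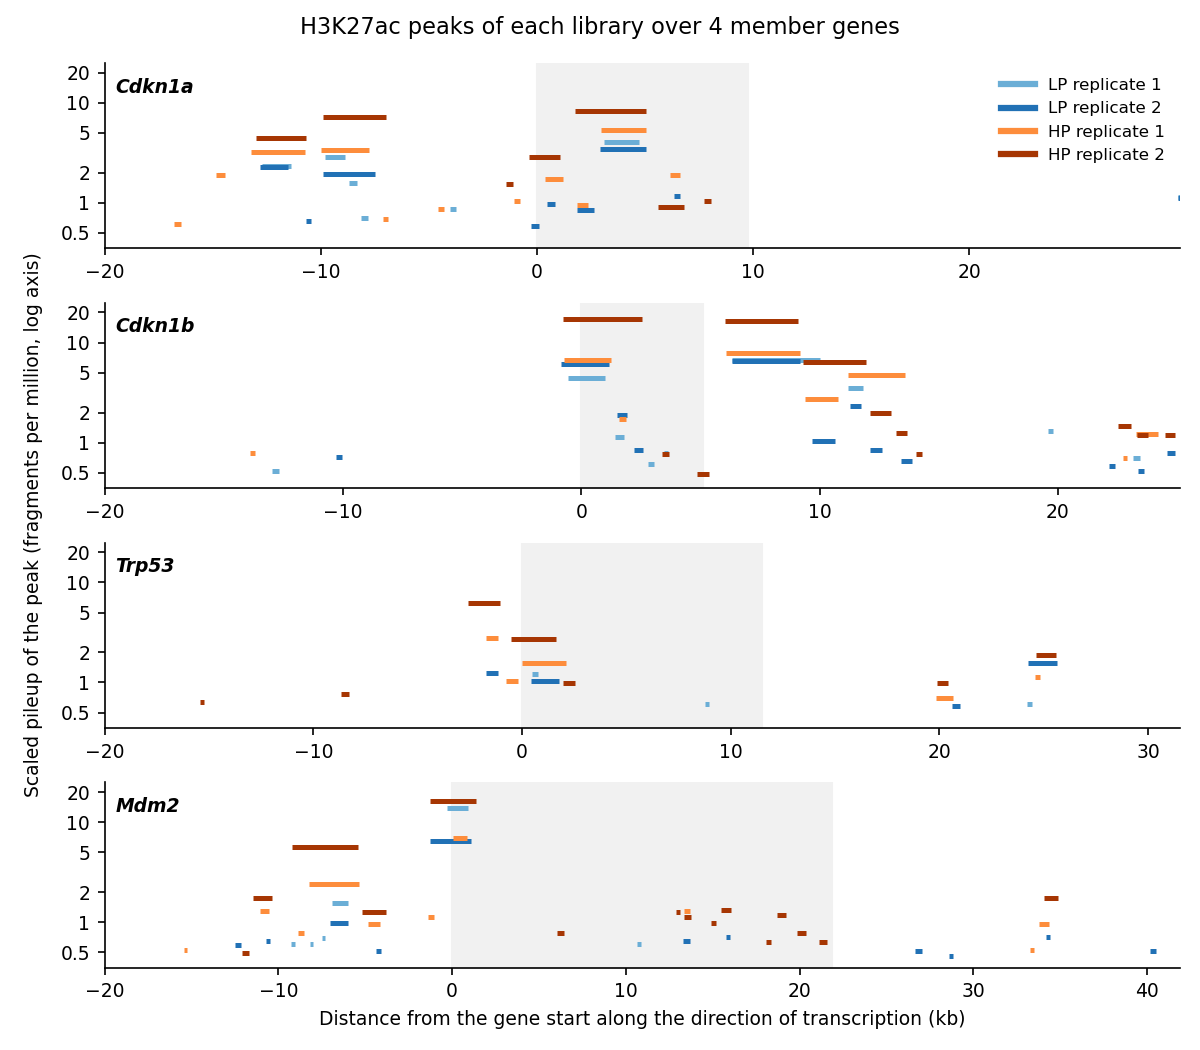
Peaks of each library (coloured bars, from start to end of the peak) over Cdkn1a, Cdkn1b, Trp53 and Mdm2 and 20 kb on each side, by distance from the gene start in kb (horizontal axis, in the direction of transcription) and by scaled pileup per 1000000 fragments (vertical log axis). Grey marks the gene. The highest peak lies at or next to a start site of Cdkn1a and Mdm2 in each library. In the Cdkn1b window the peak over the start of Lockd is the highest in 3 of 4 libraries, and the peak over the Cdkn1b start in HP replicate 2 (17.0 against 16.4). The Trp53 gene carries low peaks. A higher one lies upstream of its start in LP replicate 2 (1.24) and in both HP libraries (2.79 and 6.24).

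Among the INK4 genes, Cdkn2c and Cdkn2d were marked in all libraries. At Cdkn2c (chr4:109660876-109667189, minus strand) the TSS region chr4:109663882-109667539 had scaled pileups of 6.10 and 4.75 in LP and 8.27 and 14.3 in HP. The groups did not overlap, the log2 ratio was 1.01 (SE 0.54), and the adjusted p was 0.150 by limma. Relative to the library medians the ratio was 0.0030. A weaker region over an exon of the gene, chr4:109661095-109662493, held 0.610 and 0.521 in LP and 1.57 and 1.82 in HP. Its log2 ratio of 1.58 (SE 0.54) was among the highest of the 20, with an adjusted p of 0.0579 by limma, short of the threshold. Its mean was at percentile 4.01 of the 12084 regions, and its LP values were near the lowest of their lists (0.436 and 0.391). The start of the neighbouring Faf1, whose product binds the death receptor FAS, had 8.37 and 5.15 in LP and 11.4 and 12.7 in HP, at a log2 ratio of 0.87.

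At Cdkn2d (chr9:21288410-21291407, minus strand) the mark was lower. The TSS region chr9:21290548-21291534 had 1.48 and 1.95 in LP and 2.96 and 5.26 in HP. The adjacent region over the same start, chr9:21291552-21292144, had 1.74 and 1.17 in LP and 2.70 and 3.65 in HP. Neither pair of groups overlapped. The log2 ratios were 1.21 and 1.13 (SE 0.54 each), and the unadjusted p was below 0.05 at both, with adjusted p of 0.109 and 0.123 by limma. Relative to the library medians the ratios were 0.20 and 0.12.

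Cdkn2a (chr4:89274471-89294653) and Cdkn2b (chr4:89306299-89311039), both on the minus strand, had no peak within their windows in LP or HP, in either replicate. The stretch without a called peak in any library ran from chr4:89210743 to 89387390 and was 176.6 kb long. It reached 63.7 kb past the 3' end of Cdkn2a and 76.4 kb past the start of Cdkn2b, and these were the only protein-coding genes in it. A pseudogene (Tgif2-ps1), a long intergenic RNA gene (Gm12606) and the start of a processed transcript (Gm12609) were the other annotated features. The assembly has 5 gaps of unknown sequence there, 30.4 kb in all and all beyond the start of Cdkn2b, the first 1177 bp from it, so 146.2 kb of known sequence was without a peak.

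**Figure D3:**
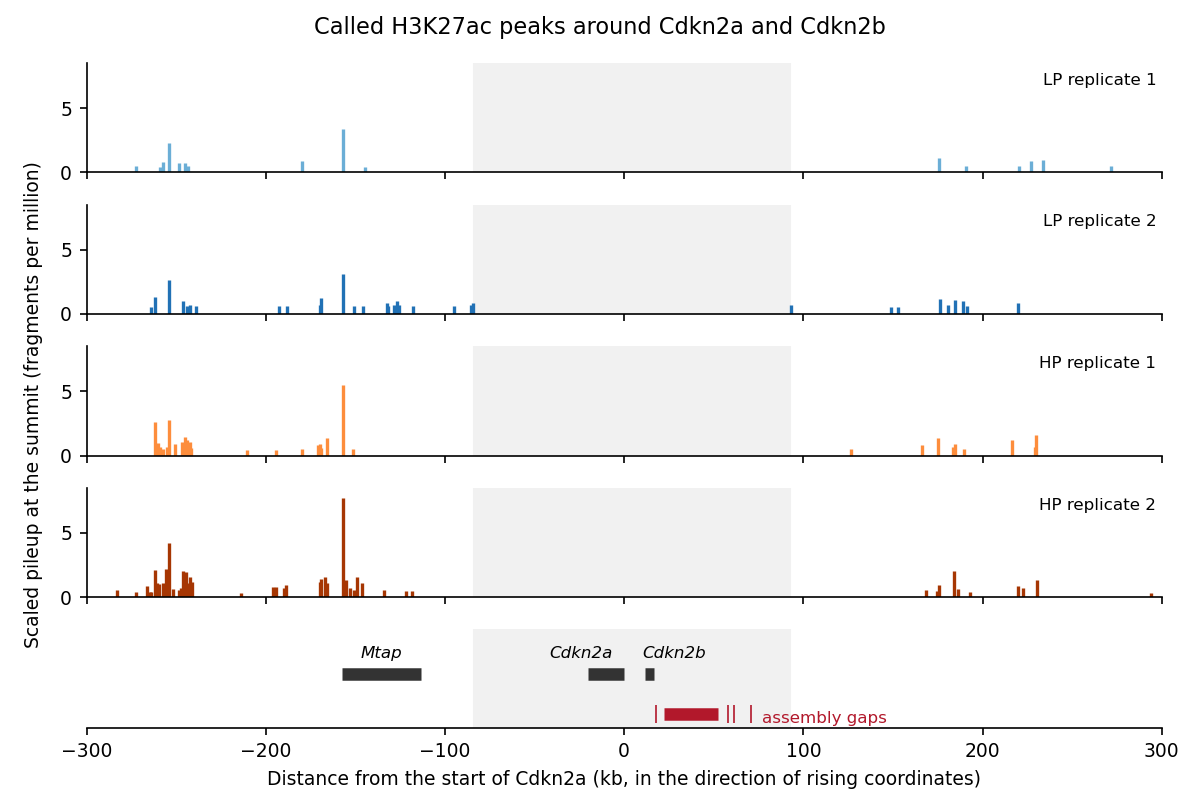
Called H3K27ac peaks of the 4 libraries (vertical lines, scaled pileup at the summit per 1000000 fragments) within 300 kb of the start of Cdkn2a, by distance in kb. Grey marks the 176.6 kb span without a peak in any library, black bars the genes Mtap, Cdkn2a and Cdkn2b, and red the assembly gaps. All 4 libraries have peaks on both sides of the span and none in it.

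The peaks that bounded the span were weak ones of LP replicate 2, with scaled pileups of 0.847 and 0.716, and without this library the span was 244.7 kb long. When only regions called in at least 2 libraries were allowed to end it, it was 320.5 kb long. The next regions called in all 4 libraries lay 72.2 kb to the left and 81.9 kb to the right. The left one, chr4:89136903-89138541, was at the start of Mtap, a methionine salvage gene, with 3.40 and 3.13 in LP and 5.49 and 7.72 in HP, at a log2 ratio of 1.00 (adjusted p 0.155 by limma). The right one was intergenic, with 1.13 and 1.17 in LP and 1.39 and 0.982 in HP. The next protein-coding gene on the right, Dmrta1, had no peak at its start. The 200 kb before the span held 10 and 23 peaks in LP and 22 and 37 in HP. The 200 kb after it held 6 and 9 in LP and 9 and 9 in HP.

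Spans of this length were uncommon by number among the intervals between called regions. The span was reached through named genes, however, and a long interval covers more sequence than a short one. The shares of intervals given here therefore understate how much of the genome lies in such spans, which was not measured. On chromosomes 1 to 19, 263 of the 178739 intervals between neighbouring regions that hold no assembly gap (0.147%) were at least 146.2 kb long, and the median over those and chromosome X was 6351 bp. Up to the first gap, the unbroken sequence that holds both genes was 101.5 kb long, a length that 1102 intervals (0.617%) reached. Of the 263 long intervals, 71 held a start of a protein-coding gene. A CpG-rich promoter, taken as one with over 50% GC and a CpG frequency over 0.6 of that expected from its base composition, lay in 4 of them. Of the 8246 protein-coding genes with such a RefSeq promoter, 7462 (90.5%) had a region within 1 kb in at least 1 library, and 6361 (77.1%) in all 4. The other 784 (9.51%), Cdkn2a and Cdkn2b among them, had none in any library. The definition was applied after the span had been seen.

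**Figure D4:**
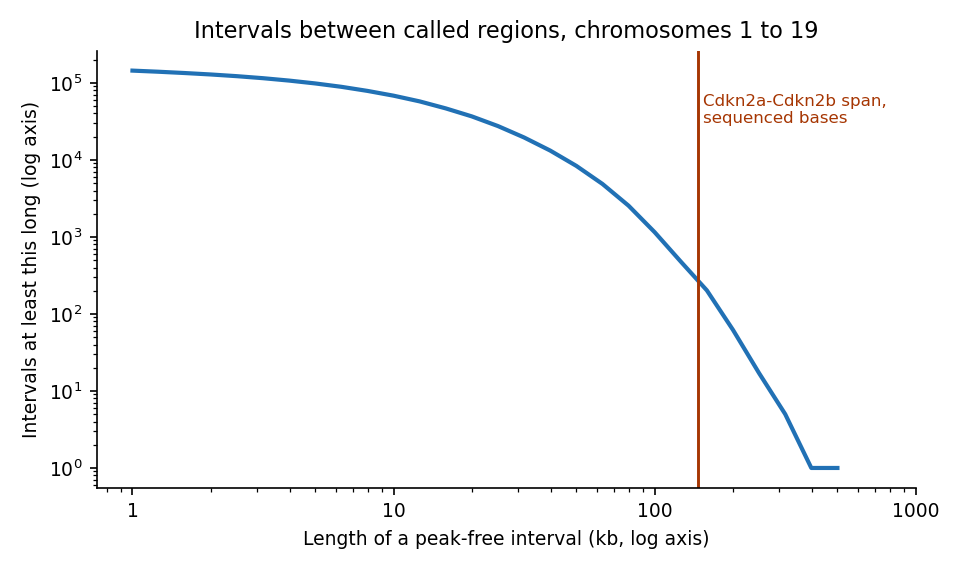
Number of peak-free intervals on chromosomes 1 to 19 (vertical log axis) that are at least as long as the value on the horizontal axis (kb, log axis), for intervals without an assembly gap. The brown line marks the 146.2 kb of known sequence in the span that holds Cdkn2a and Cdkn2b, a length that 263 of 178739 intervals reach.

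The promoters of the unmarked genes are shown beside that of Cdkn1b, since they share a high CpG content and differ in the mark. They are the RefSeq promoter sequences of GRCm38.p6, the assembly of mm10, from 250 bases before to 50 after the start, 5' to 3' on the strand of the gene, and capitals mark each CpG. The Cdkn2a promoter belongs to the first exon of p19Arf, at chr4:89294570-89294869, minus strand, and holds 45 CpG, the Cdkn2b promoter at chr4:89310983-89311282, minus strand, holds 18, and the Cdkn1b promoter at chr6:134920151-134920450, plus strand, holds 30.
Cdkn2a: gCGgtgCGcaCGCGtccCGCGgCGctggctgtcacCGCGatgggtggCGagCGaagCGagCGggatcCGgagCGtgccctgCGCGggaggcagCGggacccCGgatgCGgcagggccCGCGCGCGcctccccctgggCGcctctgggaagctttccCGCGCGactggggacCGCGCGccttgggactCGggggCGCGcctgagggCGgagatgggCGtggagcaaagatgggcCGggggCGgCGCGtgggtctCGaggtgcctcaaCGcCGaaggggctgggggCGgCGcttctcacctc
Cdkn2b: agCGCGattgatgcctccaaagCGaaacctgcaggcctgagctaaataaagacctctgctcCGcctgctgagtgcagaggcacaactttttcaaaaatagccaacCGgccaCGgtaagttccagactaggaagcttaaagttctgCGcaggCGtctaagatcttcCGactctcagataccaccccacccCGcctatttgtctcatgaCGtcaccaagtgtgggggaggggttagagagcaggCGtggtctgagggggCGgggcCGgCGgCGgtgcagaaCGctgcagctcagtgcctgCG
Cdkn1b: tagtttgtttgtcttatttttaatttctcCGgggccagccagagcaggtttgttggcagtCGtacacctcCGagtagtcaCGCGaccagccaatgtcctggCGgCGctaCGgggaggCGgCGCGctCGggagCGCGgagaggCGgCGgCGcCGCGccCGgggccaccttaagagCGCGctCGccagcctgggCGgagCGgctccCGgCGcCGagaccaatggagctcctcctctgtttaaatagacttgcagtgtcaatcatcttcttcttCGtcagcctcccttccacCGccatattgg
The GC content was 77.0%, 57.7% and 62.0%, and the CpG frequency was 1.04, 0.722 and 1.04 of that expected. No library had a peak within 1 kb of the first and the second, and all 4 had one at the third. The other Cdkn2a promoter, of the first exon of p16 at chr4:89282143-89282442, had a CpG frequency of 0.442 of that expected and no peak within 1 kb either. A list holds no value where no peak was called. From these lists, chromatin without the mark, absence of the DNA from the cells and sequence on which reads were not placed cannot be told apart.

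The p53 gene itself was among the weakly marked members. At Trp53 (chr11:69580359-69591873, plus strand) the TSS region chr11:69579591-69582918 had scaled pileups of 1.22 and 1.04 in LP and 1.57 and 2.74 in HP. Its mean was at percentile 13.6 of the 12084 regions. The groups did not overlap, the log2 ratio was 0.88 (SE 0.54), the adjusted p was 0.195 by limma, and relative to the library medians the ratio was -0.13. The region also covers a start of Wrap53, a gene read in the opposite direction. A second region at a start of Wrap53, chr11:69577750-69579324, was not called in LP replicate 1 and had 1.24 in LP replicate 2 and 2.79 and 6.24 in HP.

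Mdm2 (chr10:117688875-117710758, minus strand) had the highest mean at the TSS and the smallest ratio. Its TSS region, chr10:117709394-117712138, had scaled pileups of 13.8 and 6.45 in LP and 6.97 and 16.2 in HP. The groups overlapped, since LP replicate 1 was nearly as high as HP replicate 2. The log2 ratio was 0.17 (SE 0.54, 95% interval -0.89 to 1.24) with an adjusted p of 0.765 by limma, and it was -0.98 in replicate 1 and 1.33 in replicate 2. The sign turned without LP replicate 2 (-0.37), without HP replicate 2 (-0.44), after centring (-0.84), after quantile normalization (-0.52) and with the mean of the summit pileups (-0.22), so no direction is given for this region.

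The highest ratio of the group lay upstream of the same gene. A region with its summit at -7.96 kb from the gene start, chr10:117716102-117720049, intergenic and 3948 bp long, had 1.57 and 0.977 in LP and 2.44 and 5.68 in HP. The groups did not overlap, and its log2 ratio of 1.59 (SE 0.54) was the highest of the 20 member regions, with an adjusted p of 0.0575 by limma, short of the threshold. The region over an exon of Cdkn2c was nearly as high (1.58, SE 0.54). Upstream of Mdm2 the ratio was 0.64 in replicate 1 and 2.54 in replicate 2, and 0.58 relative to the library medians. The regions on either side of it, at -4.79 and -10.6 kb, were called in LP replicate 2 and both HP libraries, with 0.521 and 0.651 in LP and 0.958 to 1.75 in HP. The window of Mdm2 held 22 regions, the most of the 10 genes, of which 15 were called in 1 library.

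Ccng1 (chr11:40748552-40755311, minus strand), which encodes cyclin G1, had the highest ratio among the TSS regions. At chr11:40754464-40756217 the scaled pileup reached 1.57 and 2.34 in LP and 3.92 and 6.87 in HP. Between libraries of the same replicate number the log2 ratios were 1.32 and 1.55. The log2 ratio of 1.44 (SE 0.54, 95% interval 0.37 to 2.5) had an adjusted p of 0.0762 by limma, short of the threshold, and was 0.42 relative to the library medians. It lay at percentile 89.3 of the ratios of all regions. The only other regions called in all 4 libraries in this window were at the shared start of Hmmr and Nudcd2, where the stronger one had 2.01 and 2.54 in LP and 2.79 and 9.19 in HP.

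**Figure D5:**
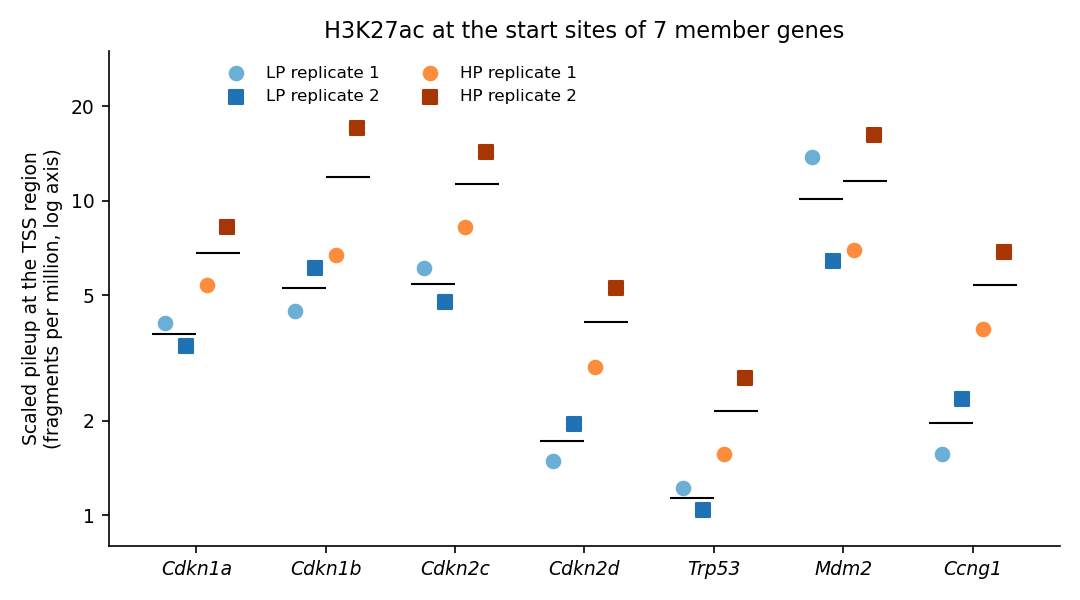
Scaled pileup (per 1000000 fragments, log axis) of the TSS region in each of the 4 libraries for the 7 member genes with a region in all of them. Points are libraries and black lines the means of the LP and the HP replicates. On this scale both HP libraries lie above both LP libraries at 6 of the 7 genes, against 74.8% of all 12084 regions called in all 4 libraries. Even so, the log2 ratios of Cdkn1a and Trp53 were -0.18 and -0.13 after centring. At Mdm2 LP replicate 1 (13.8) lies above HP replicate 1 (6.97).

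By the mean over the 4 libraries the order of the TSS regions was Mdm2 (10.8), Cdkn1b (8.58), Cdkn2c (8.36), Cdkn1a (5.31), Ccng1 (3.68), Cdkn2d (2.91) and Trp53 (1.64). From Cdkn2c downwards each gene was above the next in 4 of 4 libraries. Mdm2 was above Cdkn1b in 3 of 4, and Cdkn1b above Cdkn2c in 2 of 4, so these 3 neighbours were not ordered beyond their spread. The median log2 ratio of the 7 was 1.01, with 0.44 within replicate 1 and 1.43 within replicate 2. Without HP replicate 1, the log2 ratios of the 7 ran from 0.78 at Mdm2 to 1.84 at Ccng1. Their median was then 1.41, against 1.27 over all 12084 regions.

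Sequences that match the p53 response element were looked for in the marked regions, since p53 acts on several of these genes through such elements. The element is a pair of decamers, and a match was allowed 2 mismatches and a spacer of up to 13 bases, on either strand. In the 300 bases around the summit, 11 of the 89 regions (12.4%) held a match, against 5.30% of all merged regions, and of those called in all 4 libraries 1 of 20 (5.00%) did, against 3.34%. Each of the others with such a match was called in 1 library only, and several of them lay in the Mdm2 window. Over whole regions the shares were 22.5% and 7.30%, but these depend on the length of a region. The E-box CACGTG was in 3 of the 89 (3.37%) against 4.21%, and the E2F site TTTCCCGC in 0 of 89 against 0.300%, both read on either strand in the same 300 bases.

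The matches without a spacer and with at most 1 mismatch numbered 6 over the whole member regions. The 5 in regions called in at least 3 libraries are printed with 25 bases on each side, 5' to 3' on the strand of the member gene in mm10, and capitals mark the decamers. They lay at -0.05 kb from the annotated start of Cdkn1a (chr17:29090903-29090972, plus strand), at the start of Trp53cor1 (chr17:29079014-29079083, plus strand), at -7.00 kb from the start of Mdm2 (chr10:117717711-117717780, minus strand), and at -0.17 and 0.36 kb from the start of Ccng1 (chr11:40755437-40755506 and chr11:40754911-40754980, minus strand).
Cdkn1a: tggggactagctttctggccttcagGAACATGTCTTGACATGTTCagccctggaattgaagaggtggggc
Trp53cor1: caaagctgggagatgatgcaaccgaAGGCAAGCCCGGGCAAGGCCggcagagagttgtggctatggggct
Mdm2: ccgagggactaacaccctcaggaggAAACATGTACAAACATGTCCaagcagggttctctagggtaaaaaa
Ccng1 upstream: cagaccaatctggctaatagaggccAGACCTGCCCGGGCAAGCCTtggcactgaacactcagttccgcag
Ccng1 downstream: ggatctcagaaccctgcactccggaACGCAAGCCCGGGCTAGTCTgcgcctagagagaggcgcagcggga
The Mdm2 match lay in the region with the highest ratio of the 20 (1.59), and both Ccng1 matches in the TSS region with the highest ratio (1.44). The Trp53cor1 match lay in a region of a lower ratio (0.70), and the Cdkn1a match in the upstream start region that LP replicate 1 lacked. The sixth, in an intron of Mdm2, lay in a peak of LP replicate 1 alone. The regions of the 5 printed matches held none in the 300 bases around their summits, and so are not among the 11 of 89. The only such match in a region called in all 4 libraries was at the shared start of Hmmr and Nudcd2. Whether matches and ratios go together was not tested. A match describes the sequence only, and binding of p53 was not measured.

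Other genes of the p53 pathway were described from a pair of lists. Of 30 p53 targets, 28 had a TSS region in some library and 22 in all 4. Among genes with a CpG-rich promoter, 90.5% and 77.1% had one within 1 kb. limma called 0 of the 22, and 7 at an unadjusted p below 0.05, against 485 and 4374 of all 12084 regions. The log2 ratios of the 22 ran from 0.29 to 1.48 with a median of 0.93, against 0.92 over all regions. The highest was at Sat1, a polyamine acetylase (1.48), with 0.698 and 0.521 in LP and 1.22 and 2.31 in HP. The mean there was at percentile 5.09 of the 12084 regions, and the lowest values of the LP lists were 0.436 and 0.391. Next came Ddb2, which recognises damaged DNA (1.37), with 1.13 and 1.89 in LP and 2.79 and 5.12 in HP. The lowest were at the polo-like kinase gene Plk2 (0.29) and at Ccng2, which encodes cyclin G2 (0.41), where the groups overlapped. Pmaip1, which encodes the death factor NOXA, and Trp53i11 had no TSS region in any library. The TSS regions of the other 6 were called in 1 to 3 libraries. Tigar and Pidd1 lacked a TSS region in LP replicate 1, Fas and Eda2r in both LP libraries, a pattern of 3.94% of all merged regions, Perp had one in LP replicate 2 alone and Tnfrsf10b in HP replicate 2 alone, with scaled pileups of 0.697 to 3.93.

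Of 20 regulators and relatives of p53, 19 had a TSS region in some library and 18 in all 4. Among genes with a CpG-rich promoter, 90.5% and 77.1% had one within 1 kb. limma called 0 of the 18, and 3 at an unadjusted p below 0.05, against 485 and 4374 of all 12084 regions. The median log2 ratio of the 18 was 0.81, from 0.41 to 1.19. The highest were at Rchy1, which encodes the p53 ubiquitin ligase PIRH2 (1.19), and at the DNA damage kinase gene Atm (1.13). The lowest was at the repressor gene Bcl6 (0.41), with 19 and 8.60 in LP and 12.4 and 23.2 in HP. Next came Usp7, which encodes a deubiquitinase of MDM2 and p53 (0.53), with 11.7 and 5.80 in LP and 11.2 and 12.5 in HP. As at Mdm2, the LP replicate 1 values of both Bcl6 and Usp7 lay between those of HP replicates 1 and 2, so the groups overlapped. Trp73, another relative of p53, had a TSS region in LP replicate 1 alone (0.610), and Trp63, a relative active in epithelia, had none in any library.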

How the data were processed

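H3K27ac ChIP-seq libraries of LP and HP B16 F10 cells (2 replicates each) were analysed from peak lists. Per the labels, the authors trimmed reads with Trimmomatic 0.33 and used Bowtie2 2.5.1 with mm10, and per the file headers they called narrow peaks in each library with MACS 3.0.0b1 (paired-end, duplicates kept, q-value of at most 0.05) against an IgG library of the same replicate number. The signal used, the summit pileup, was deposited by the authors as whole fragments without scaling. The authors' lists also hold the fold enrichment, a ratio to the local background, and −log10 values of p and q, of which q served only as a filter. The labels give 1% formaldehyde for fixation, and the study's methods give another concentration.

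Peaks sharing at least 1 bp were merged into regions, and the highest scaled pileup of a library in a region was its value. limma 3.58.1 in R 4.3.3 was fitted to log2 values without a replicate block, which was tried as an alternative. The fit used the same variance for every region, hence the common SE. TSS regions lay within 1 kb of the start of a protein-coding transcript (GENCODE for GRCm38), and the highest was taken where a gene had several. The merging, the limma step and the motif search were tested on simulated data. Tables were made with pandas 2.3.3 under Python 3.11.15 and figures with matplotlib 3.10.9. Read counts were not analysed here, so depth limits each value through the pileup, whose median in a list was 7 to 12 fragments.

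The member genes, the gene lists and the tests were chosen with earlier results of these data known. The genes named are the 10 members, the protein-coding genes in and next to the peak-free span, neighbours with a region at their start in a member window, and, of each pathway list, genes past the threshold or otherwise those with the 2 highest and 2 lowest log2 ratios. List genes without a TSS region in all libraries, and genes that hold or adjoin a region described, were named after their values were seen. The span at Cdkn2a and Cdkn2b holds assembly gaps, so the length of its known sequence was set beside intervals without gaps. Alternatives were other scalings, stricter q-values, other windows, another merging distance, the replicate block, and leaving out each library.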

Additional observations from a re-analysis of the deposited data

How the results depend on the processing

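The count of member regions past the limma threshold was 0 under the other scalings, the mean summit pileups, the replicate block (0 of 20) and a q-value of at most 0.001, whereas over all regions it was 485 at first and 0, 0, 9, 0, 88 and 33 after centring, quantile normalization, scaling by fragment length, mean summit pileups, the block and that q-value. It was 0 to 14 when each library was left out, with 14 reached without HP replicate 1. With windows of 50 kb it was 1, a region near the start of Slc44a2, 29.2 kb from Cdkn2d, with 0.523 and 1.69 in LP and 2.35 and 4.14 in HP (log2 ratio 1.73, SE 0.54, adjusted p 0.0477 by limma). The LP replicate 1 value there was near the lowest of its list (0.436) and well below that of LP replicate 2.

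The median log2 ratio of the 7 TSS regions, 1.01, was 0.0030 after centring and 0.14 after quantile normalization, and was 0.52 to 1.41 when each library was left out. With the replicate block it was again 1.01, and no call of a member changed, while the calls over all regions went from 485 to 88. LP and HP libraries of a number share an IgG library and the amount of input DNA, but no source used here says that they came from 1 culture, and the correlation of their deviations from the group means was 0.0153. Of 77 pairs of a gene and an alternative setting, 68 kept the sign. The other 9 turned negative. Centring gave -0.18 at Cdkn1a, -0.13 at Trp53 and -0.84 at Mdm2, quantile normalization gave -0.10, -0.16 and -0.52 in the same order, and Mdm2 was -0.22 with mean summit pileups. When each library was left out, Mdm2 ran from -0.44 to 0.78, and it was negative without LP replicate 2 (-0.37) and without HP replicate 2 (-0.44).

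Regions called in both HP libraries and neither LP library numbered 2 and 3 at q-values of at most 0.01 and 0.001, 0 and 5 with windows of 10 and 50 kb, and 28 of 72 and 32 of 68 from the single lists left without replicate 1 and without replicate 2, where 11 and 13 were called in LP and not in HP. Their mean, the value for the replicate block, was 30. The span at Cdkn2a and Cdkn2b was 320.5 kb when ended by regions of at least 2 libraries, and 319.7, 277.6 and 286.1 kb in LP replicate 1, HP replicate 1 and HP replicate 2 alone. The p53 response element was in 22.5% of whole member regions against 12.4% near the summit. The cause of these changes was not tested, apart from settings that by construction compare fewer libraries or longer sequence. The lists hold no value below a pileup of 5 or 6 fragments, so depth limits what they record of weaker marks.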
